A study of Homo sapiens with 27 samples.

Results

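Complete piggyBac gene transfer systems, each with a hyperactive transposase, were compared by where their insertions lay in the genome of HCT116 cells. The symmetric system (sym_rehyPB) paired a symmetric transposon with re-engineered hyperactive piggyBac, and the short system (short_hyPB) paired a short transposon with hyperactive piggyBac. Each was represented by 3 libraries, so that the comparison used 6 of the series' 27 libraries, which were picked by their titles. The pair was proposed with earlier results of these data known, among them that both groups have small and similar file totals. Transposon and transposase differ together between the groups, and the part of each in any difference cannot be told apart.

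All 6 libraries came from HCT116, an established human colorectal carcinoma line, transfected with a self-reporting transposon and kept in puromycin at 3 µg/ml for 2 weeks. The submitters' library names give the short transposon the ends re67 and le40 and the symmetric transposon le40 at both ends. They name the transposases hyPB and delta74hyPB2CD, and the series title names asymmetric ends and N-terminal phosphorylation as features under study. The labels do not state the line's passage or clone, nor whether the replicates were separate cultures, so p-values measure only the spread between libraries. The peak lists hold no expression values, and the labelled cell type was not checked against marker genes. Library primers were matched to the transposon, per the labels' protocols, so their part cannot be told apart from that of the system either. The same pair of transposons without the hyperactive form is called the parental pair here and is given beside the hyperactive pair. It sets sym_rePB, with re-engineered piggyBac, against short_PB, with wild-type piggyBac, 3 libraries each in the same cells and selection. It shares no library with the hyperactive pair, but its libraries have exact positions in common with those of that pair, as given below.

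PiggyBac is a cut-and-paste DNA transposon from an insect. Its transposase binds the terminal repeats, excises the element and joins it to the target sequence TTAA, which is duplicated on either side of the new copy. In mammalian cells piggyBac is known to insert often in transcribed and open chromatin and near gene starts. In the self-reporting form, transcripts start inside the element and run out into the DNA beside it, so that an insertion can be read from RNA.

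An insertion site was taken as the first base of the 4-base target at the transposon-facing edge of a peak, and each position was counted once per library whichever strand it was on. The peak lists of short_hyPB replicates 1, 2 and 3 held 7626, 7058 and 7676 peaks, and those of sym_rehyPB held 3998, 3844 and 4648. Each file carries a constant that was taken as its total of mapped reads, although no label states this. These totals ran from 241556 to 256608 in short_hyPB and from 225962 to 245870 in sym_rehyPB. No listed peak was lower than 5 in height, a value taken as reads although no header names it. The totals are small, and a site missing from a library was not detected at this depth rather than absent. Libraries of the 2 systems had many exact positions in common, for which reason placements are also given below for positions listed in 1 library only.

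The edge rule could be checked against sequence in promoters, because RefSeq promoter windows of 300 bases (250 before to 50 after a gene's start, GRCh38.p14) were at hand. Over the 6 libraries 569 peaks lay in 35116 such windows, and 555 of them sat exactly on a TTAA. The share per library was lowest in sym_rehyPB replicate 1, at 96.0% of 50 peaks (95% Wilson interval 86.5% to 98.9%, counting error only), and highest in short_hyPB replicate 1, at 98.5% of 130 peaks (94.6% to 99.6%). Moving the site by 1 to 3 bases left at most 3 peaks of any of these libraries on a TTAA. Both systems therefore hit the same 4-letter target in these windows. A TTAA, which reads the same on both strands, occurred in 46.1% of all windows, at 28889 positions, of which 301 were hit.

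Of those promoter targets, 5 were listed in all 6 libraries. They are shown with their flanks on the plus strand of GRCh38, the target in capitals, because they are the promoter sites listed in every library of both systems.
PCOLCE2: ggcggaggcacttTTAAaggcgattatggt
EFCAB2-AS1: ccattttgcctccTTAAtgaggacgcagga
LOC105379083: agctggcaaggcaTTAAggaggtctgaggg
HSD17B1-AS1: tgtgggtggctaaTTAAgatagatcgcgtt
RSRC1: gaaggcgctgagcTTAAactgaagcaagtt

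The PCOLCE2 target lies at chr3:142889108-142889111, 28 bases before the annotated start of this procollagen C-proteinase enhancer gene. Its peaks were 11, 15 and 28 reads high in short_hyPB and 18, 15 and 13 in sym_rehyPB, so the groups overlapped. The RSRC1 target, at chr3:158110110-158110113, lies 21 bases after the start of a gene for an arginine- and serine-rich protein of RNA splicing. Its peaks had heights of 10, 14 and 5 reads in short_hyPB and 9, 7 and 9 in sym_rehyPB. The EFCAB2-AS1 target at chr1:244971084-244971087 had heights of 28, 12 and 18 reads in short_hyPB and 7, 12 and 8 in sym_rehyPB. The other two, at chr5:93162480-93162483 and chr17:42555035-42555038, had heights between 5 and 18 reads.

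Of the 301 promoter targets hit, another 9 were listed in all 3 short_hyPB libraries and in no sym_rehyPB library, and 0 showed the opposite pattern. Over all positions of the genome, counted by base and strand, 200 showed the former pattern and 29 the latter. With so few sites in promoter windows, the 0 does not set promoters apart. The sym_rehyPB lists are also the shorter ones, and the part of list length in this imbalance was not tested. Targets at ZNF783, SPAG7 and MC1R were also among the 9. Another MC1R target, at chr16:89918840-89918843, was listed in short_hyPB replicates 2 and 3 and in sym_rehyPB replicate 3. The 4 shown were picked after their values were seen, from the sites with named genes.
FAM117B: ggtctctttctctTTAAagagcagacggtc
COLGALT1: gcgctatgtgcctTTAAgatcggtgcgggg
HAPLN3: ccagaccagccccTTAAaggaacacgcgca
KCNK5: tccgcacgcctctTTAAccagcgcccggcg

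The FAM117B target at chr2:202634821-202634824 had heights of 10, 10 and 14 reads in short_hyPB, and that of COLGALT1, a collagen galactosyltransferase gene, at chr19:17555496-17555499 had 9, 10 and 8. The HAPLN3 target at chr15:88895605-88895608 had heights of 7, 6 and 8 reads and that of KCNK5, a potassium channel gene, at chr6:39229501-39229504 had 6, 5 and 7. The lowest of these are close to the smallest listed height. Over all promoter targets hit, the 10 bases on each side of the TTAA held 46.0%, 46.3% and 46.6% A or T in short_hyPB and 48.0%, 49.5% and 50.8% in sym_rehyPB. The groups did not overlap, and all promoter TTAA had 58.6%. The group means were 46.3% ± 0.29 and 49.5% ± 1.40 (SD, n = 3; two-sided exact permutation p = 0.1, the smallest that 3 against 3 libraries allow). In the parental pair they were 46.9% ± 0.50 in short_PB and 48.7% ± 1.84 in sym_rePB, and the groups overlapped (SD, n = 3; exact permutation p = 0.3).

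The short system gave more sites from a similar number of reads. Short_hyPB replicates 1, 2 and 3 listed 7443, 6896 and 7505 distinct sites and the sym_rehyPB replicates 3950, 3801 and 4570. Every short_hyPB library stood above every sym_rehyPB library, and the lowest of the former was 1.51 times the highest of the latter. The means were 7281 ± 335 and 4107 ± 408 sites (SD, n = 3), a fold of 1.77, and the log2 difference of sym_rehyPB from short_hyPB was −0.83 (exact permutation p = 0.1). Per 1000000 reads of the file total the means were 29098 ± 493 and 17509 ± 945 sites (SD, n = 3), a fold of 1.66. With the heights thinned to the smallest total, 225962, the short_hyPB libraries kept 6201, 6081 and 5972 sites and the sym_rehyPB libraries 3766, 3801 and 3838.

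The parental pair showed a larger gap in the same direction. Short_PB libraries listed 9145 ± 103 sites from totals of 179014 to 210694, and sym_rePB libraries listed 3056 ± 213 sites from totals of 234082 to 255694 (SD, n = 3). The log2 difference was −1.58 there, against −0.83 in the hyperactive pair, and the hyperactive pair's difference was smaller in size by 0.75. Under 400 relabellings of the hyperactive forms within each system this gap had a permutation p of 0.005, the smallest they can give, and an adjusted p of 0.01 over the 20 library measures. Within short_hyPB there were fewer sites than within short_PB, and within sym_rehyPB there were more than within sym_rePB.

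Peaks of the short system were also taller. The median height was 6 reads in every one of the 6 libraries, but peaks of at least 10 reads made up 18.1%, 18.7% and 18.3% of the short_hyPB lists and 13.6%, 14.4% and 13.3% of the sym_rehyPB lists. The mean height was 7.59 ± 0.036 reads in short_hyPB and 7.06 ± 0.074 in sym_rehyPB (SD, n = 3; exact permutation p = 0.1). Summed over all peaks, heights came to 22.6% ± 0.33 of the file total in short_hyPB and 12.5% ± 0.63 in sym_rehyPB (SD, n = 3). More of the reads of a sym_rehyPB file thus lay outside the listed peak maxima, and what they are is not given by the lists. Peaks were slightly narrower in sym_rehyPB, with median widths of 64, 61 and 67 bases against 69, 69 and 70.

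**Figure D1:**
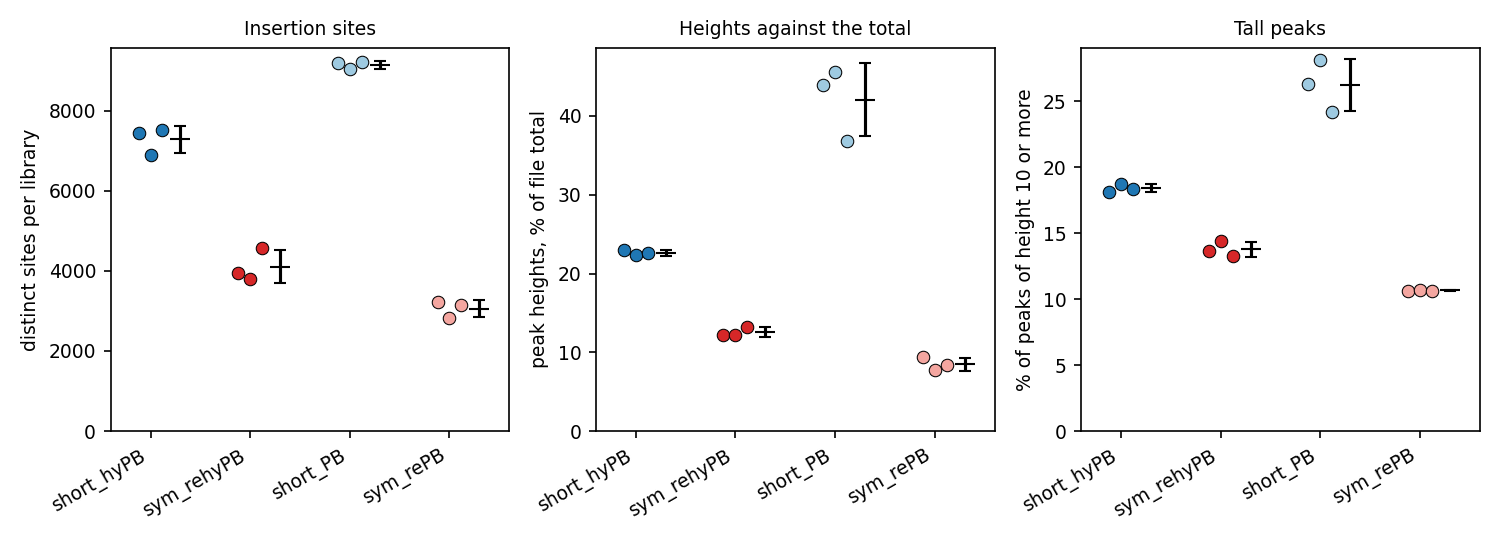
Distinct insertion sites per library (left), summed peak heights as a percent of the file total (middle) and the percent of peaks at least 10 reads high (right) in the hyperactive pair and the parental pair of systems. Points are libraries and bars are mean ± SD (n = 3). The short_hyPB points lie above the sym_rehyPB points in each panel, at 6896 to 7505 against 3801 to 4570 sites.

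Sites of the symmetric system lay more often inside protein-coding genes and less often far from them. The share of sites in a protein-coding gene body was 46.0%, 44.9% and 46.0% in short_hyPB and 48.2%, 47.4% and 47.5% in sym_rehyPB, so that the groups did not overlap. The means were 45.7% ± 0.64 and 47.7% ± 0.42 (SD, n = 3), a difference of 2.06 percentage points (exact permutation p = 0.1). The share more than 100 kb from any protein-coding gene was 9.74%, 9.35% and 8.83% in short_hyPB and 7.44%, 7.58% and 7.72% in sym_rehyPB, lower by 1.73 points with no overlap. Counted over all annotated genes, which include noncoding genes, the shares were 60.5% ± 0.77 and 61.4% ± 0.52 (SD, n = 3), and there the groups overlapped (exact permutation p = 0.3).

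Of 20 library measures tested, 16, or 80%, had groups that did not overlap, and with adjustment over the 20 none of their exact p-values could fall below 0.125. A lack of overlap in any single measure is therefore common between these 2 systems. The direction of the coding gene share was not the same in the parental pair, where sym_rePB was at 48.0% ± 0.72 and short_PB at 49.0% ± 0.92 (SD, n = 3), a difference of −1.06 points (relabelling permutation, adjusted p = 0.01 for the change between pairs). The parental groups overlapped in this share (exact permutation p = 0.3). The share far from coding genes did point the same way there, at 7.81% ± 0.44 against 9.11% ± 0.15 (SD, n = 3), a difference of −1.30 points (relabelling permutation, adjusted p = 0.283 for the change between pairs).

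Gene ends were close to even between the systems. Sites no more than 5 kb from a gene end, noncoding genes included, made up 46.0%, 46.2% and 45.9% of short_hyPB and 46.8%, 47.0% and 46.9% of sym_rehyPB. The groups did not overlap, but the difference of 0.88 points was small, and it was −0.15 points for peaks of at least 10 reads and −0.57 points with a window of 1 kb. In the parental pair the gap was 3.84 points, from 42.4% ± 0.61 in short_PB to 46.2% ± 1.39 in sym_rePB (SD, n = 3), larger than in the hyperactive pair (relabelling permutation, adjusted p = 0.0308). The means of sym_rePB and sym_rehyPB were 46.2% and 46.9%, and those of short_PB and short_hyPB 42.4% and 46.0%.

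Around transcription starts 2 measures differed in direction, and they differ both in width and in the genes they cover. Within 1 kb of a protein-coding gene's start lay 10.1% ± 0.049 of short_hyPB sites and 10.3% ± 0.16 of sym_rehyPB sites (SD, n = 3), a difference of 0.25 points. Starts were at hand only for the 15812 protein-coding genes with a promoter window. Within the 300-base promoter windows, which include those of noncoding genes, lay 1.73%, 1.96% and 1.80% of short_hyPB sites and 1.27%, 1.55% and 1.31% of sym_rehyPB sites, lower by 0.45 points. Neither pair of groups overlapped (exact permutation p = 0.1 for each). In the parental pair the promoter window share was 1.44% ± 0.11 in short_PB and 1.35% ± 0.14 in sym_rePB (SD, n = 3). That was a difference of −0.09 points with overlapping groups (exact permutation p = 0.4). Orientation within those 15812 genes did not separate the systems: of peaks covered by such genes on 1 strand only, 41.0% ± 0.65 in short_hyPB and 41.4% ± 1.51 in sym_rehyPB lay on the strand of the gene (SD, n = 3; exact permutation p = 0.9).

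**Figure D2:**
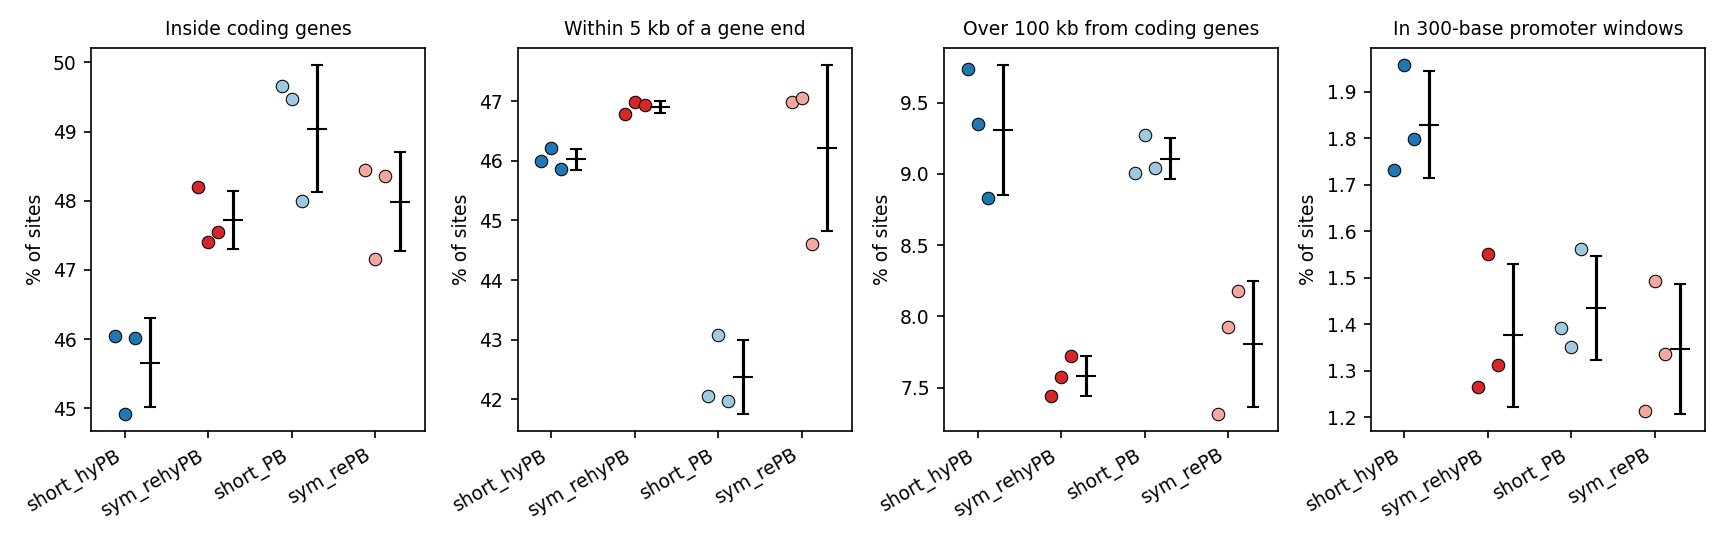
Percent of each library's sites inside protein-coding genes, within 5 kb of an annotated gene end, more than 100 kb from any protein-coding gene and inside 300-base promoter windows. The axes do not start at 0. Points are libraries and bars are mean ± SD (n = 3). In the far-from-gene panel the sym_rehyPB points lie at 7.44% to 7.72%, below the short_hyPB points at 8.83% to 9.74%.

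The chromosomes took unequal shares of the sites in the 2 systems. The gene-rich chromosomes 17 and 19 held more of the symmetric system's sites: chromosome 17 held 6.03%, 6.18% and 6.14% in short_hyPB and 7.39%, 6.81% and 7.61% in sym_rehyPB. Chromosome 19 held 3.86%, 4.07% and 4.10% in short_hyPB and 4.94%, 4.89% and 4.60% in sym_rehyPB. The gene-poor chromosome 13 held 1.69%, 1.61% and 1.79% in short_hyPB and 1.16%, 1.24% and 0.875% in sym_rehyPB. Chromosomes 20 and 22 were also higher in sym_rehyPB, and chromosomes 2, 3, 18 and X lower, with no overlap between groups. These were 9 of 23 chromosomes, or 39.1%, and the adjusted exact permutation p was 0.256 for each.

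Of all 23 chromosomes, 16 differed in the same direction in the parental pair. Among the 9 without overlap above, 8 did so, again with no overlap. Chromosome 17 went from 5.62% ± 0.52 in short_PB to 7.19% ± 0.28 in sym_rePB, and chromosome 19 from 2.85% ± 0.082 to 4.40% ± 0.36 (SD, n = 3). Chromosome 13 went from 2.12% ± 0.18 in short_PB to 1.25% ± 0.16 in sym_rePB (SD, n = 3). The exception was chromosome 18, at 1.81% ± 0.16 in short_PB and 1.89% ± 0.25 in sym_rePB (SD, n = 3). Over the 23 chromosomes the 2 sets of differences correlated with Pearson r = 0.82, a description over chromosomes that share each library and its total.

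**Figure D3:**
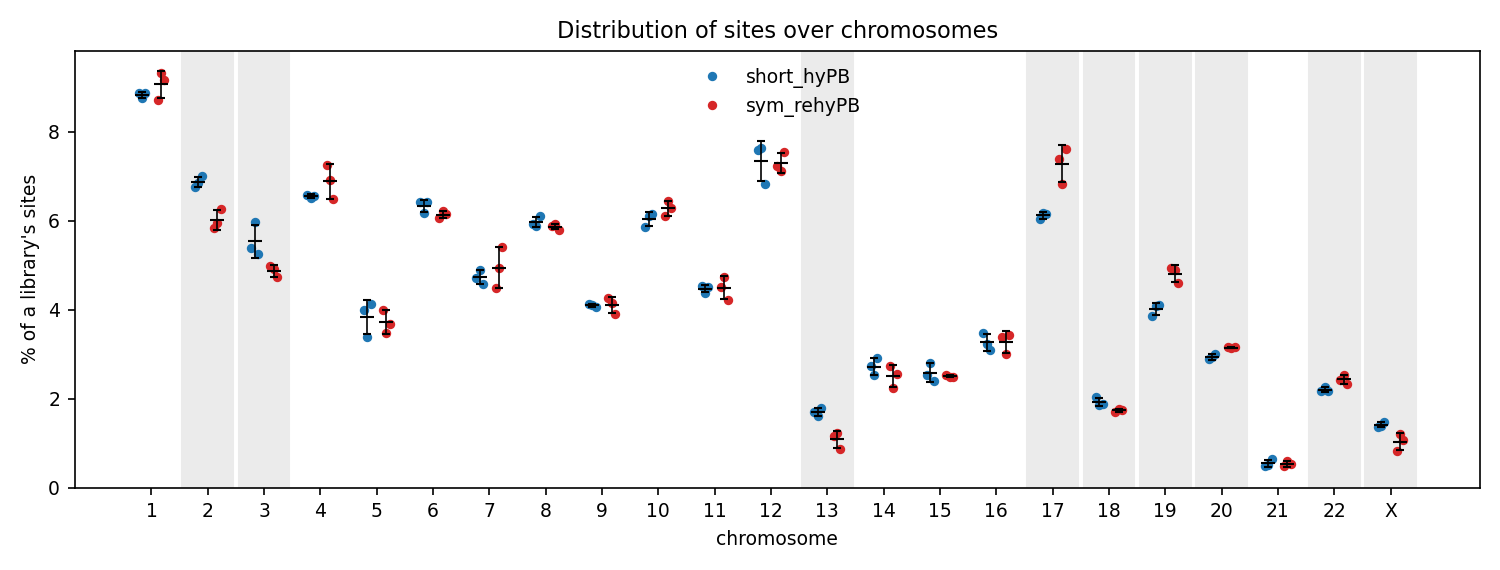
Percent of each library's sites on chromosomes 1 to 22 and X in short_hyPB and sym_rehyPB. Points are libraries, bars are mean ± SD (n = 3), and grey bands mark the 9 chromosomes on which the groups do not overlap. Chromosome 17 stands higher in sym_rehyPB, at 6.81% to 7.61% against 6.03% to 6.18%.

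In windows of 5 Mb, limma tested 434 bins with at least 5 sites per 10000 and called 2, or 0.461%, at an adjusted p under 0.05, 1 higher and 1 lower in sym_rehyPB (0.23% each). In the parental pair 3.23% of the same bins were called. The bin at 30 to 35 Mb of chromosome 4, which holds PCDH7, had 147, 133 and 126 sites in short_hyPB and 95, 93 and 109 in sym_rehyPB. Per 10000 sites of the library this came to means of 186 and 241, so that sym_rehyPB was higher by 0.38 ± 0.07 on the log2 scale (SE; limma adjusted p = 0.000519). Without the sites in PCDH7 the change of this bin was −0.04 (limma adjusted p = 0.97), and the gene's own sites thus made the call. The bin at 225 to 230 Mb of chromosome 2 had 30, 38 and 37 sites in short_hyPB and 10, 5 and 13 in sym_rehyPB. Its mean rate was 48.2 against 22.3 per 10000, a log2 change of −1.11 ± 0.26 (SE; limma adjusted p = 0.0234, 0.00926 to 0.327 over the alternatives), and in the parental pair its change was −0.56. The call was lost without any 1 of the short_hyPB replicates (limma adjusted p of 0.117, 0.273 and 0.256 without replicates 1, 2 and 3) and without sym_rehyPB replicate 2 (limma adjusted p = 0.168), while without sym_rehyPB replicate 1 limma called 4 bins. It was also lost with thinned heights, at equal numbers of sites, with no filter, with the spread of 4 groups, for peaks of at least 10 reads, without PCDH7 sites and over positions of 1 library only, so that 11 of 20 alternatives ended it.

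Of the 434 bins, 68, or 15.7%, had groups that did not overlap. In 26 of them (5.99%) sym_rehyPB was higher and in 42 (9.68%) it was lower. Of those 68 bins, 53 had the same direction in the parental pair, against 273 of all 434 bins. In simulated data with known changes the same test called 37.3% of bins changed 2-fold and 88.5% of those changed 4-fold, so a 2-fold change of a bin would more often have been missed than called. The simulated libraries differed by counting error only, so these shares may be too high for real libraries.

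**Figure D4:**
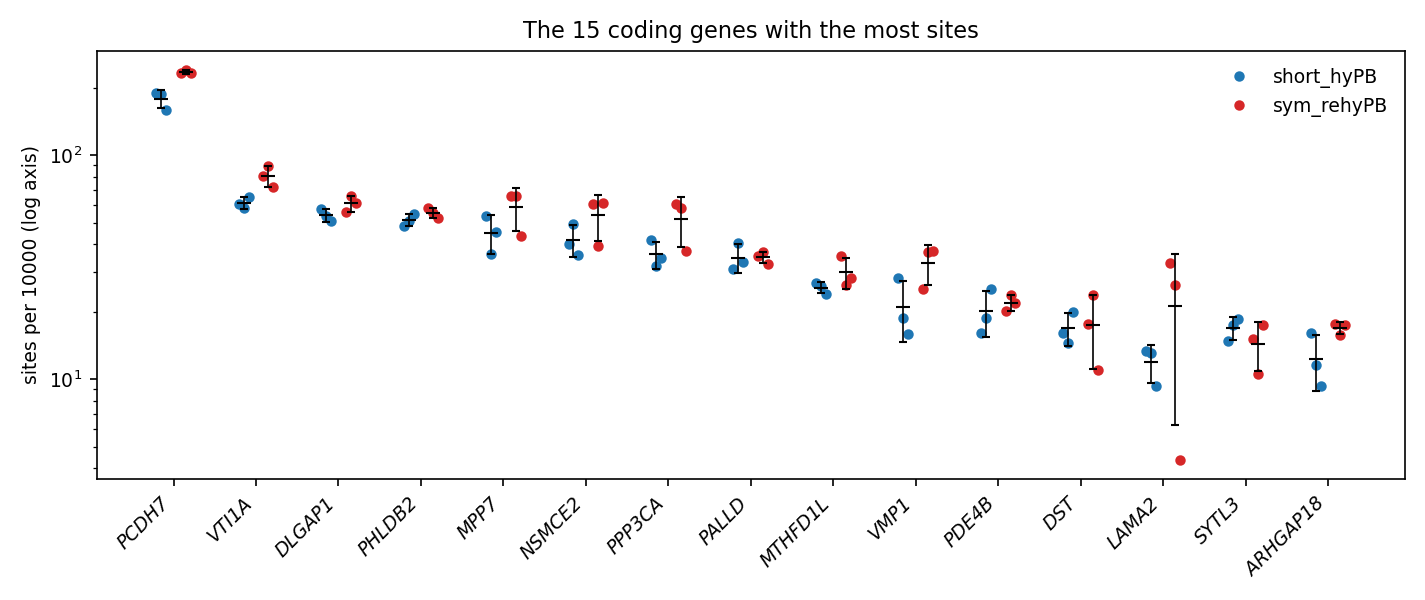
Sites per 10000 sites of the library in the 15 protein-coding genes with the most sites, on a log axis. Points are libraries and bars are mean ± SD (n = 3). PCDH7 leads in all 6 libraries, and on this log scale LAMA2 in sym_rehyPB spreads widest, from 4.38 to 32.9.

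Protein-coding genes were tested where at least 5 of 10000 sites fell inside them, which held for 69 of 19970 genes. Limma called 1 of them, or 1.45%, at an adjusted p under 0.05. All 3 genes without overlap between groups (4.35%) were higher in sym_rehyPB. The called gene was PCDH7, which encodes a protocadherin of cell adhesion and spans chr4:30720369-31146800. Its rate was 189, 187 and 160 sites per 10000 in short_hyPB and 233, 239 and 232 in sym_rehyPB, so every symmetric library stood above every short library. The counts behind these rates were 141, 129 and 120 sites and 92, 91 and 106 sites.

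The change of PCDH7 was 0.40 ± 0.07 on the log2 scale (SE; limma adjusted p = 0.00745, 1.68e-07 to 0.915 over the alternatives). The median change of the 69 tested genes was 0.31 on the same scale, and relative to that median PCDH7 was higher by 0.08. That median depends on the processing: it was 0.10 at equal numbers of sites, 0.22 with a pseudocount scaled to the number of sites and 0.72 for peaks of at least 10 reads. Of the 69 genes, 13 had a mean rate under the minimum in short_hyPB and 5 in sym_rehyPB, and these passed the filter through the other group alone. Scaled to the median of the tested genes instead of to the number of sites, its change was 0.14 and the call was lost (limma adjusted p = 0.915). It was 0.13 for peaks of at least 10 reads (limma adjusted p = 0.83), and the call was also lost without short_hyPB replicate 2 (limma adjusted p = 0.0512) and without sym_rehyPB replicate 1 (limma adjusted p = 0.303), and over positions of 1 library only (limma adjusted p = 0.623). In the parental pair the rates were 115 ± 10.5 in short_PB and 261 ± 22.4 in sym_rePB (SD, n = 3), a log2 change of 1.18 ± 0.08 (SE). The median change of the same 69 genes was 0.85 in that pair.

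Within PCDH7 the fullest windows held similar shares in both systems. In windows of 20 kb from the lower coordinate, the fullest was that at 100 to 120 kb, with 15.2% ± 3.00 of the gene's sites in short_hyPB and 15.1% ± 3.73 in sym_rehyPB (SD, n = 3). The window at 60 to 80 kb held 11.8% ± 0.54 and 12.7% ± 2.45, and that at 300 to 320 kb held 10.7% ± 1.62 and 9.71% ± 1.17 (SD, n = 3). The window at 0 to 20 kb and that at 260 to 280 kb held none in any of the 6 libraries. In these 3 windows the libraries of the 2 groups overlapped. The window at 40 to 60 kb held 9.22%, 6.98% and 16.7% in short_hyPB and 5.43%, 7.69% and 7.55% in sym_rehyPB. At 360 to 380 kb and 380 to 400 kb every sym_rehyPB library stood above every short_hyPB library, with means of 0.99% in short_hyPB and 2.45% in sym_rehyPB, and 0.77% and 1.41%. The former window held only 2, 2 and 0 sites in short_hyPB and 3, 2 and 2 in sym_rehyPB. The latter held 1, 1 and 1 against 1, 2 and 1. The percents are also raised in sym_rehyPB because its libraries had fewer sites in the gene. Single windows were not tested.

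VTI1A, a SNARE protein gene of vesicle transport at chr10:112446988-112855368, was second by rate. It had 60.5, 58.0 and 65.3 sites per 10000 in short_hyPB and 81.0, 89.5 and 72.2 in sym_rehyPB, with no overlap. Its change of 0.40 ± 0.12 (SE) did not pass the threshold (limma adjusted p = 0.234, 0.032 to 0.915 over the alternatives), and relative to the median gene it was 0.09. It did pass without short_hyPB replicate 3 (limma adjusted p = 0.047) and without sym_rehyPB replicate 3 (limma adjusted p = 0.032). Its fullest windows again held similar shares: the window at 60 to 80 kb held 26.3% ± 3.39 of them in short_hyPB and 24.3% ± 9.33 in sym_rehyPB, and that at 80 to 100 kb held 26.0% ± 5.46 and 27.3% ± 5.34 (SD, n = 3).

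Another gene whose groups did not overlap was ACSL5, a fatty acid ligase gene that lies beside VTI1A, named after its values were seen. Its rates were 10.7, 11.6 and 9.33 sites per 10000 in short_hyPB and 22.8, 15.8 and 13.1 in sym_rehyPB, from 6 to 9 sites per library. The change was 0.69 ± 0.28 (SE; limma adjusted p = 0.342). Without sym_rehyPB replicate 3 limma called 6 genes, without short_hyPB replicate 3 it called 2, and without short_hyPB replicate 2 or sym_rehyPB replicate 1 it called 0, with 2 and 4 at an unadjusted p under 0.05.

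The 15 genes with the highest rates carried more of the symmetric system's sites. Together they held 6.54%, 6.28% and 6.02% of sites in short_hyPB and 8.15%, 8.13% and 7.31% in sym_rehyPB. Of the 15, 14 had a fitted change above 0, against 56 of all 69 tested genes, and 1 was called. On the median scale DLGAP1, PHLDB2, PALLD, MTHFD1L, PDE4B and DST turned to below 0. All 15 had a change above 0 in the parental pair, where 9 of them and 22 of the 69 genes (31.9%) were called by limma. The median change of the 69 genes was 0.85 in the parental pair, so most of them lay above 0 there.

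In the other leading genes the groups overlapped. DLGAP1, a postsynaptic scaffold gene, had 57.8, 53.7 and 50.6 sites per 10000 in short_hyPB and 55.7, 65.8 and 61.3 in sym_rehyPB. PHLDB2, a gene of cortical microtubule anchoring, had 48.4, 50.8 and 54.6 against 58.2, 55.2 and 52.5. MPP7, a cell polarity scaffold gene, had 53.7, 36.3 and 45.3 against 65.8, 65.8 and 43.8. In each of the 3, at least 1 symmetric library lay within the range of the short libraries.

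NSMCE2, which encodes a SUMO ligase of DNA repair, had means of 41.9 ± 6.80 sites per 10000 in short_hyPB and 53.8 ± 12.4 in sym_rehyPB (SD, n = 3). PPP3CA, the calcineurin catalytic subunit gene, had 36.1 ± 5.03 and 51.9 ± 12.9, and VMP1, an autophagy membrane protein gene, had 21.0 ± 6.39 and 33.1 ± 6.76 (SD, n = 3). PPP3CA and VMP1 had unadjusted limma p-values of 0.0278 and 0.0192 and adjusted p-values of 0.342 and 0.331. PALLD, an actin-bundling protein gene, stood at 34.9 ± 5.05 and 35.0 ± 2.04, and SYTL3, a vesicle trafficking gene, at 16.9 ± 1.98 and 14.4 ± 3.56 (SD, n = 3). LAMA2, a laminin chain gene, had 13.4, 13.1 and 9.33 in short_hyPB and 32.9, 26.3 and 4.38 in sym_rehyPB, where replicate 3 was the lowest of all 6 libraries. MTHFD1L, PDE4B, DST and ARHGAP18 also overlapped between groups.

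Many more genes were hit at least once. Sites lay in 4191 protein-coding genes over the 3 short_hyPB libraries and in 2883 over the 3 sym_rehyPB libraries, of which 1746 were in both sets. The lists differ in length, and their part in these counts was not tested. In simulated data, again with counting error only, the gene test called 17.1% of genes changed 2-fold and 67.1% of those changed 4-fold, so most 2-fold changes of a gene would have been missed.

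Of 11 gene lists, 4, or 36.4%, had rates that did not overlap between the systems. The members dense enough for the gene test were TCF7L2, a Wnt pathway factor that is also in the gut list, the growth factor receptor gene MET and the tumour suppressor SMAD3. The rate of MET was 7.69 ± 3.91 sites per 10000 in short_hyPB and 12.9 ± 4.92 in sym_rehyPB, and that of SMAD3 was 6.85 ± 2.23 and 9.65 ± 1.58 (SD, n = 3; limma adjusted p = 0.497 for both). TCF7L2, at 3.64 ± 1.47 and 8.05 ± 2.51 (SD, n = 3), met the minimum rate through sym_rehyPB alone. The filter favoured this gap, so it is not read as a difference and no fitted change is given. Its sites also enter the rates of the Wnt and gut lists. Genes of common fragile sites, 15 very long genes, held 13, 10 and 11 sites in short_hyPB and 3, 3 and 3 in sym_rehyPB. Per 10000 sites this came to 17.5, 14.5 and 14.7 against 7.59, 7.89 and 6.56, with means of 15.5 ± 1.67 and 7.35 ± 0.70 (SD, n = 3). In the parental pair they were at 19.6 ± 8.51 in short_PB and 8.96 ± 5.57 in sym_rePB (SD, n = 3), where the groups overlapped.

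Ribosomal protein genes, 76 short and highly expressed genes, held 8.06, 7.25 and 7.99 sites per 10000 in short_hyPB and 0, 2.63 and 6.56 in sym_rehyPB. The 20 gut epithelial transcription factor genes held 5.37, 4.35 and 7.99 in short_hyPB and 12.7, 15.8 and 8.75 in sym_rehyPB. These rates lean on 1 gene. TCF7L2 alone held 2, 2 and 4 of the list's 4, 3 and 6 sites in short_hyPB and 4, 2 and 4 of its 5, 6 and 4 sites in sym_rehyPB. The lack of overlap is therefore not a trait of the 20 genes as a set. The 20 chromatin and BET regulator genes held 4.13 ± 0.19 in short_hyPB and 7.32 ± 2.52 in sym_rehyPB (SD, n = 3), from 2 to 4 sites per library. The rates of these lists rest on 0 to 6 sites per library. The order of the parental means was opposite for the last 2 lists, at 14.6 ± 5.64 in short_PB and 10.6 ± 7.62 in sym_rePB for the gut factors and 5.45 ± 2.14 and 2.10 ± 1.82 for the chromatin regulators (SD, n = 3).

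The other lists overlapped between the groups. The 20 Wnt pathway genes held 11.9 ± 1.65 sites per 10000 in short_hyPB and 17.4 ± 6.78 in sym_rehyPB, and the 20 growth factor receptor and RAS-PI3K genes 14.5 ± 7.28 and 22.6 ± 6.17 (SD, n = 3). The 20 tumour suppressor and cell-cycle brake genes held 18.8, 14.5 and 7.99 in short_hyPB and 20.3, 13.2 and 17.5 in sym_rehyPB. The 39 HOX genes held 5.54 ± 2.51 and 8.78 ± 3.07 (SD, n = 3). The 250 zinc finger genes of chromosome 19 held 13.4, 10.2 and 7.99 in short_hyPB and 2.53, 10.5 and 6.56 in sym_rehyPB. The 390 olfactory receptor genes held 2.72 ± 1.29 and 1.57 ± 1.37 (SD, n = 3). In 20 long neuronal genes there were 4, 0 and 1 sites in short_hyPB and none in the 3 sym_rehyPB libraries.

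Libraries shared exact positions, within and between the systems, and whether any of this came from carry-over between libraries was not tested. A position counted as shared when both the base and the strand agreed. Between 21.5% and 23.7% of a short_hyPB library's positions were listed in another short_hyPB library, and between 17.8% and 22.1% of a sym_rehyPB library's in another sym_rehyPB library. Of sym_rehyPB positions, 25.1% to 26.8% were listed in a given short_hyPB library, which is larger than a sym_rehyPB list. On the opposite strand of the same target only 4.43% to 4.82% of them were listed there. The parental libraries had positions in common with these 6 as well. A sym_rePB library listed 14.4% to 17.5% of a sym_rehyPB library's positions, and a short_PB library 11.3% to 14.7% of a short_hyPB library's. Of sym_rePB positions, 23.9% to 29.7% were listed in a short_hyPB library. Shares of sym_rehyPB positions listed in a piggyBat library, an outside system of the series, ran from 5.51% to 7.70%. Among the piggyBat libraries themselves, 52.1% of the positions of replicate 1 were listed in replicate 3 and 8.55% in replicate 2.

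Since a longer list is matched more easily, 3844 peaks were also drawn from each library. Then 11.2% to 11.9% of positions were shared within short_hyPB, 17.8% to 19.3% within sym_rehyPB and 12.6% to 13.9% between the systems. The order of the systems in replicate sharing therefore turned under this draw. It removed more of each short_hyPB list, which by construction lowers sharing within short_hyPB, so the draw cannot decide the order. The share of a library's positions found in any other replicate of its group was 32.3% ± 1.23 in short_hyPB and 29.2% ± 1.66 in sym_rehyPB as listed (SD, n = 3), without overlap. Drawn to equal numbers the sym_rehyPB share was higher by 8.22 points. With heights thinned to the smallest total the order stayed as listed, and the short_hyPB lists stayed longer. The shares were then 31.8%, 32.5% and 32.1% in short_hyPB and 29.5%, 28.4% and 28.9% in sym_rehyPB. Taller peaks were shared more often, at 57.6% to 61.8% of peaks of at least 10 reads in short_hyPB and 52.7% to 58.5% in sym_rehyPB, against 19.3% to 22.3% of peaks of 5 or 6 reads over both groups.

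**Figure D5:**
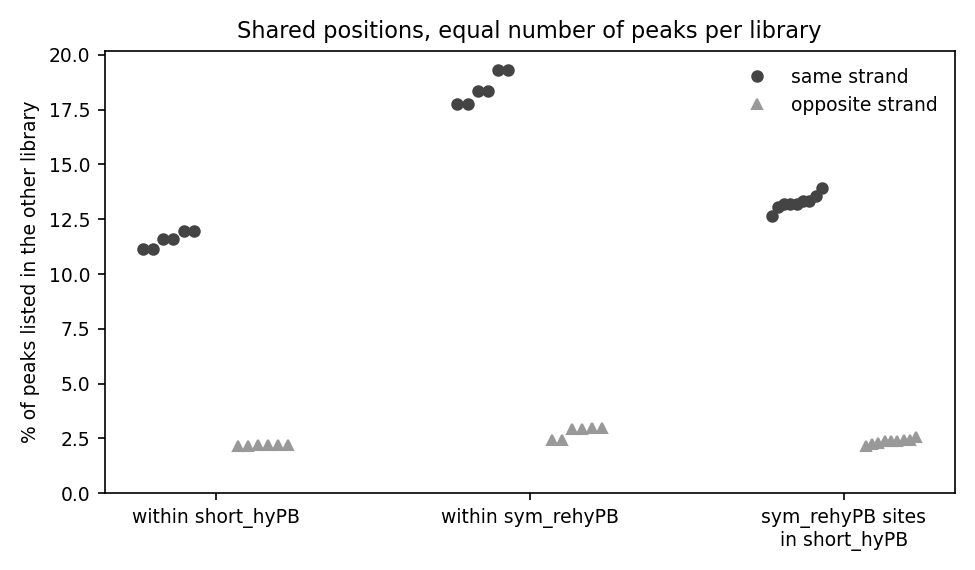
Percent of positions also listed in another library, on the same strand (circles) and on the opposite strand (triangles), after drawing an equal number of peaks from each library. Each point is an ordered pair of libraries. Pairs within sym_rehyPB lie highest, at 17.8% to 19.3% on the same strand. The draw removed more of each short_hyPB list, which by construction lowers sharing within short_hyPB.

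The 6 libraries together listed 25190 positions by base and strand, of which 79.1% came from 1 library only. All 3 short_hyPB libraries shared 942 positions and all 3 sym_rehyPB libraries 442. The 219 positions in both sets are 23.3% of the former and 49.5% of the latter. Of the 219, 94, or 42.9%, lay in protein-coding genes, 7 of them in PCDH7 and 4 in VTI1A, and 52.1% lay within 5 kb of a gene end. Over all sites of a library the coding gene share was 44.9% to 48.2% and the gene-end share 45.9% to 47.0%. Peaks were on average taller in short_hyPB at 180 of the 219, with medians of 13.7 reads in short_hyPB and 10.3 in sym_rehyPB.

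By mean height, the tallest position among the 219 was outside protein-coding genes, at chr12:12883057-12883060 on the plus strand, with heights of 57, 64 and 58 reads in short_hyPB and 52, 31 and 43 in sym_rehyPB. Another 200 positions were listed in every short_hyPB library and in no sym_rehyPB library, and 29 the other way round, that is 21.2% of the 942 and 6.56% of the 442. The short_hyPB lists are longer, and with 3844 peaks drawn from each library the order turned, to 32 positions in every short_hyPB library only and 91 in every sym_rehyPB library only, of 128 and 344 in all 3 libraries of the system. The draw removed more of each short_hyPB list, which by construction leaves fewer short_hyPB positions in all 3 libraries, so it cannot decide the order. The tallest of the 29 was at chr12:88926645-88926648 on the minus strand, with heights of 35, 31 and 28 reads in sym_rehyPB. The next was in PCDH7, at chr4:31035566-31035569 on the minus strand, with 19, 16 and 19 reads. The former stood apart in height, since no other position of either kind had a mean height above 18.7 reads.

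Several placements were also measured on the positions of 1 library only, an alternative chosen after the sharing was seen. The coding gene share was then 47.3% ± 0.92 in short_hyPB and 51.6% ± 1.25 in sym_rehyPB, and the share more than 100 kb from coding genes 9.24% ± 0.81 and 6.36% ± 0.27 (SD, n = 3), in both cases with no overlap and a wider gap than over all sites. The promoter window share was 1.15% ± 0.13 and 0.688% ± 0.049, also without overlap (SD, n = 3). The share within 1 kb of a coding gene's start was 7.72% ± 0.16 and 6.92% ± 0.69 (SD, n = 3), so that its direction turned and the groups overlapped. All 9 chromosomes named above kept their direction, but only 4 of them, chromosomes 2, 13, 17 and 19, had no overlap. Of all 23 chromosomes 6 had no overlap here. The set included chromosomes 1 (higher in sym_rehyPB by 0.69 points) and 8 (lower by 0.50 points), whose groups overlapped over all sites. PCDH7 had 99.3 ± 17.1 and 131 ± 23.7 sites per 10000, with overlap between the groups (SD, n = 3).

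Both orientations at the same target were listed more often in the short system. The share of sites with a peak on each strand was 2.46%, 2.35% and 2.28% in short_hyPB and 1.22%, 1.13% and 1.71% in sym_rehyPB, with no overlap. The means were 2.36% ± 0.091 and 1.35% ± 0.31 (SD, n = 3), a fold of 1.75 (exact permutation p = 0.1). In the parental pair the shares were 1.02% ± 0.12 in short_PB and 0.925% ± 0.21 in sym_rePB, with overlap (SD, n = 3; exact permutation p = 0.7). The short_hyPB lists were also longer. When 3844 peaks were drawn from each library, they lay at 3794, 3795 and 3798 distinct sites in short_hyPB. In sym_rehyPB they lay at 3799, 3801 and 3781, so at equal numbers the groups overlapped in how many peaks fell on a site already listed. The draw removed more of each short_hyPB list, which by construction splits more of its pairs, so it cannot decide the part of list length.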

How the data were processed

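The values are peak lists that the authors deposited, 1 per library, without headers. Cutadapt 3.4, HISAT2 2.2.1.0, hg38 and GRCh38.p5 are named in the submitters' processing notes; the peak caller is not given in the sources used here. The deposited peak height is a signal of whole numbers, taken as reads not scaled to depth. The libraries were amplified by PCR and the labels name no molecular identifiers. Genes and promoters came from RefSeq (GRCh38.p14), with 59788 genes placed.

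Groups were compared by two-sided exact permutation tests over 20 assignments (smallest p 0.1), adjusted by Benjamini-Hochberg over 20 measures, and the change between pairs of systems by 400 relabellings. Genes and 5 Mb bins were tested with limma 3.58.1 in R 4.3.3 on log2 of sites plus 0.5, per 10000 sites, where the mean rate was at least 5. The test was checked on simulated data with counting error only and no added spread between libraries. Named are PCDH7, VTI1A, the 15 coding genes with the highest rates, up to 10 called genes and 5 called bins in each direction, and list members tested. The comparison and the gene lists were chosen with earlier results of these data known.

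Alternatives changed peak height, depth, number of sites, libraries, gene and window definitions, pseudocount, filter, scale, weights and spread. Same-numbered libraries did not deviate together (correlations of −0.08 to 0.083), so replicate numbers were not used as pairs.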

Additional observations from a re-analysis of the deposited data

Results flagged for a closer look

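For 13 of 20 library measures the difference between the systems, symmetric minus short, was not the same with hyperactive as with parental transposases. These values are the difference in the hyperactive pair minus that in the parental pair, and each was tested by 400 relabellings (smallest p 0.005).

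The gap in site number was narrower in the hyperactive pair, by 0.75 in log2 sites and by 24039 sites per 1000000 reads of the file total (adjusted permutation p = 0.01 for both). So were the gaps in peak height: by 1 read in the median, 1.38 reads in the mean, 10.9 points in the share of peaks at least 10 reads high and 23.5 points in the share of the file total (adjusted permutation p = 0.01 for each).

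Sharing between replicates differed by −20.3 points (adjusted permutation p = 0.01). As listed, 32.3% ± 1.23 of positions were shared in short_hyPB and 29.2% ± 1.66 in sym_rehyPB, against 12.2% ± 0.52 in short_PB and 29.4% ± 2.85 in sym_rePB (SD, n = 3).

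Placement near genes differed by −2.96 points for annotated gene ends (adjusted permutation p = 0.0308), −3.23 points for coding gene ends (adjusted permutation p = 0.01) and −1.71 points within 1 kb of coding gene starts (adjusted permutation p = 0.025). The symmetric minus short difference was positive in both pairs for these 3 measures and larger in the parental pair. For the share in coding genes the change was 3.11 points (adjusted permutation p = 0.01), with opposite directions in the 2 pairs and overlapping parental groups. For the share of sites in both orientations it was −0.91 points (adjusted permutation p = 0.0182), and for PCDH7 it was −89.4 sites per 10000 (adjusted permutation p = 0.01), where sym_rePB exceeded short_PB by 145 sites per 10000 and sym_rehyPB exceeded short_hyPB by 56.0.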

How the results depend on the processing

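The difference in log2 sites (−0.83) was −1.25 for peaks of at least 10 reads and −0.68 with heights thinned to the smallest total, where sites per 1000000 reads differed by −2977 and −10104. The gene share difference (0.90 points) was 2.37 for those peaks, 2.06 over coding genes and 2.71 over positions of 1 library. The gene-end difference (0.88) was −0.15 for those peaks, 0.51 thinned, 0.36 at equal numbers of sites, 1.11 without PCDH7 sites, −0.57 and 1.02 with windows of 1 kb and 10 kb, and 0.52 over positions of 1 library. The replicate sharing difference (−3.14) was −6.91 for those peaks and 8.22 at equal numbers, and it ran from −12.7 to 6.96 with 1 replicate left out, which by construction leaves that group's libraries 1 partner each. The draw to equal numbers by construction removed more of the short_hyPB lists.

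Genes called (1) came to 0 on the median scale, without PCDH7 and over positions of 1 library (0, 6 and 3 at an unadjusted p under 0.05 by limma), 16 for peaks of at least 10 reads (all higher in sym_rehyPB), and 0 to 6 with 1 replicate left out. Bins called (2) came to 4 with a pseudocount of 2 sites, 1 thinned, 1 at equal numbers, 6 in bins of 1 Mb and of 10 Mb, and 1 to 4 with 1 replicate left out. They came to 0 with no filter, with the spread of 4 groups, for peaks of at least 10 reads, without PCDH7 and over positions of 1 library (46, 33, 32, 40 and 37 at an unadjusted p under 0.05 by limma). With a replicate block, limma called 1 gene and 3 bins, the library differences kept their values, and numbers were not taken as pairs.

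Signs turned for named genes as follows, in log2. On the median scale DLGAP1 was −0.076, DST −0.22, MTHFD1L −0.019, PALLD −0.23, PDE4B −0.081 and PHLDB2 −0.14. For peaks of at least 10 reads DLGAP1 was −0.0014, LAMA2 −0.46, NSMCE2 −0.078, PDE4B −0.58, PPP3CA −0.42 and SYTL3 0.026. Over positions of 1 library DLGAP1 was −0.25, DST −0.012 and SYTL3 0.45. DST was −0.0017 with voom weights, −0.0063 with 5 kb added to genes and −0.0051 with a scaled pseudocount, and PALLD was −0.038 at equal numbers. With 1 replicate left out DST ran from −0.20 to 0.32, LAMA2 from −0.022 to 1.30 and PALLD from −0.049 to 0.14. The PCDH7 bin was −0.040 without PCDH7.

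The alternatives with equal numbers, a scaled pseudocount, features chosen on the parental pair and positions of 1 library were chosen after seeing the data. Depth limits what single genes can show, since most hold few sites per library. The cause of these changes was not tested.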
